A study of Saccharomyces cerevisiae with 4 samples.

Results

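The genes of the yeast proteasome were followed in a strain of Saccharomyces cerevisiae with a reduced glycolysis, in which 1 of them, PUP3, had a raised messenger RNA level while its partners stayed close to the reference. The 34 genes were chosen by name. They encode the 14 subunits of the core particle, the 19 subunits of the regulatory particle named here, and the transcription factor Rpn4. All 34 were found, each as a single tested gene model, among the 5329 named genes with a value in both strains. PUP3 was singled out because the authors' comparison of these same libraries called it higher, so its values are a description and carry no test.

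The minimal glycolysis strain, IMX372, is a MATa strain in which 13 minor paralogs of glycolysis and fermentation are deleted. The genes glk1, hxk1 and tdh1 are replaced by SpHis5, KlLEU2 and KlURA3, and adh2, adh4, adh5, eno1, gpm2, gpm3, pdc5, pdc6, pyk2 and tdh2 are removed. It also carries the alleles ura3-52 and his3-1 and a mutant allele of LEU2. The reference strain, CEN.PK113-7D, is a prototrophic MATa strain with none of these changes, and both strains carry MAL2-8c and SUC2. Effects of the deletions, the markers and any other difference between these strains cannot be told apart. Cells of both strains came from aerated batch bioreactors held at 30 °C and pH 5, on a synthetic medium whose glucose was 20 g/L, and were sampled in mid-exponential phase.

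Each strain had 2 libraries. The authors pooled them into 1 FPKM per gene model and strain, where FPKM is a fragment count scaled by the length of the gene model and by the size of the library. No value below therefore has an SD, an n or a known read depth, and the order of 2 levels cannot be tested. A gene is named as called when its q-value in the authors' deposited table was at most 0.05. Those q-values come from Cuffdiff, which estimates the spread from the libraries, in a way the sources used here do not give. By them, 43 of 5437 tested models were called, or 0.791%, of which 28 were higher in the minimal glycolysis strain, or 0.515%. The check of the strain labels rests on GPM3, a deleted gene, whose FPKM is given as 0 for the minimal glycolysis strain and as 57.7 for the reference.

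The proteasome degrades proteins that carry ubiquitin chains. Its core is a barrel of stacked rings. The outer alpha rings gate the entrance and the inner beta rings hold the protease sites on the subunits Pre3, Pup1 and Pre2. The regulatory particle caps the barrel. Its base unfolds substrates with a ring of ATPases, and its lid removes the ubiquitin. In budding yeast the transcription factor Rpn4 activates proteasome genes together through a short promoter element, the proteasome-associated control element, and is itself a short-lived substrate of the proteasome. PUP3 encodes a beta-ring subunit that has no protease site.

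The promoter element was found for most but not all of these genes, and its sites are shown first. The letters GGTGGCAAA were searched on both strands from 250 bases before to 50 bases after the start of each gene in the RefSeq R64 assembly of the strain S288C. Genes were matched by systematic name, and the promoters of CEN.PK113-7D and IMX372 were not read. The element lay in 27 of the 34 windows, 12 of the core and 15 of the regulatory particle, and in none more than once. Over all 6020 windows it lay in 72, or 1.20%, so the 27 genes make up 37.5% of all windows that hold it. The element is named for proteasome genes, so a high share among them is no separate result and was not tested. Sites stood between 84 and 183 bases before the start codon with a median of 120. PUP3 has the site farthest from its start codon, at 183 bases. The sites below belong to the beta-ring genes that hold one, to PRE6, the gene with the highest ratio after PUP3, and to RPN2, the gene with the lowest. Capitals mark the element, and each line is read in the direction of its gene. In PRE4 and PRE6 the element is on the opposite strand and reads TTTGCCACC.
PUP3: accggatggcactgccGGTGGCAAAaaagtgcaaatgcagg
PRE1: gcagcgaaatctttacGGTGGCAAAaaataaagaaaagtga
PRE2: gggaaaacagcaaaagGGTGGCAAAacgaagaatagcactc
PRE3: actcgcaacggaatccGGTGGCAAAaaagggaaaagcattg
PRE7: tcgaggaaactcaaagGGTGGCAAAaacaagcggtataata
PRE4: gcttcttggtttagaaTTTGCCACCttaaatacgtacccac
PRE6: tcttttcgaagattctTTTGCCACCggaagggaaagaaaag
RPN2: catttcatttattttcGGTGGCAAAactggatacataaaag

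The windows of PRE5, PUP1, RPN10, RPN13, RPN8, SEM1 and RPN4 do not hold these letters, which says nothing about binding by Rpn4. PUP3 thus carries the same letters as 26 of the other genes. Neighbouring windows overlap, so that the 72 windows hold 60 distinct sites, of which 12 lie in the windows of 2 genes, and 7 of the members' sites also lie in the window of a gene that is no member.

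PUP3 (YER094C, chromosome 5, 346957 to 347574 on the CEN.PK113-7D assembly) had an FPKM of 1541 in the minimal glycolysis strain, against 701 in the reference. The fold was 2.20 and the log2 ratio 1.14, and the authors' deposited table called it higher with p = 5e-05 and q = 0.00735. It was the 1 member called of 34, against 0.791% of all tested models. The next highest log2 ratio among the members was 0.21, for PRE6, which leaves a gap of 0.93. Among all named genes PUP3 had the 8th highest ratio. The same 1 of 34 members had an unadjusted p under 0.05, against 3.27% of all tested models, and the same 1 changed at least 2-fold, against 0.57% of them. Since PUP3 was chosen from this comparison, nothing is read from these counts.

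**Figure D1:**
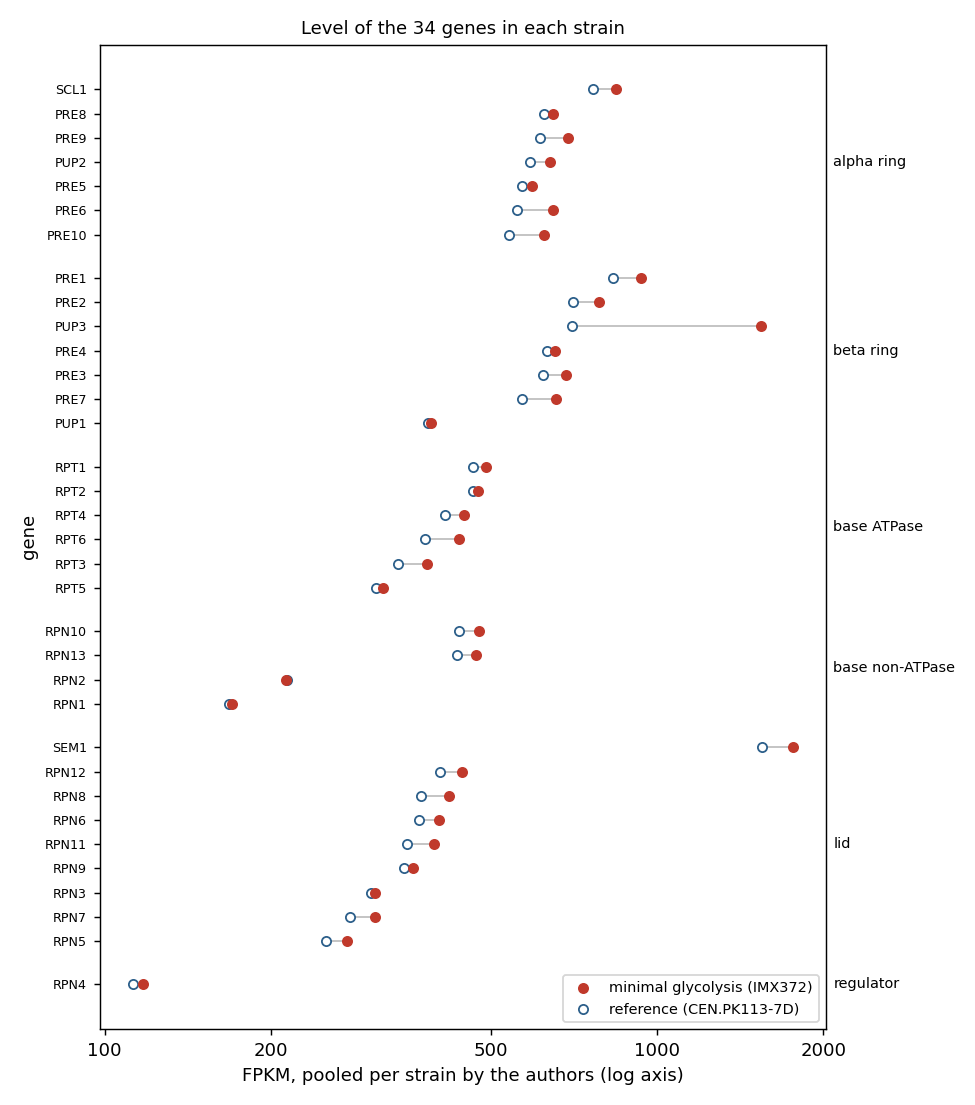
FPKM of each of the 34 genes on a log axis, with filled red points for the minimal glycolysis strain and open blue points for the reference, grouped by the place of the protein in the proteasome. The points of PUP3 stand apart at 1541 and 701, while both points of each other gene lie close together.

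The other beta-ring genes lay near the reference. PRE1 (YER012W), a subunit without a protease site, had an FPKM of 934 in the minimal glycolysis strain and 833 in the reference. PRE2 (YPR103W), the subunit with the chymotrypsin-like site, had an FPKM of 784 in the minimal glycolysis strain and 706 in the reference. PRE3 (YJL001W), the subunit with the caspase-like site, had an FPKM of 685 in the minimal glycolysis strain and 620 in the reference. These genes stood at log2 ratios of 0.17, 0.15 and 0.14. PRE7 (YBL041W) and PRE4 (YFR050C), subunits without a protease site, had FPKM of 655 and 652 in the minimal glycolysis strain and of 570 and 632 in the reference. PUP1 (YOR157C), the subunit with the trypsin-like site, had the lowest level of the core in both strains, an FPKM of 389 in the minimal glycolysis strain and 385 in the reference. Over these 6 genes the log2 ratio ran from 0.01 for PUP1 to 0.20 for PRE7, and 0 of the 6 were called.

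The alpha ring showed the same narrow range. SCL1 (YGL011C) had the highest level of the 7, an FPKM of 841 in the minimal glycolysis strain and 764 in the reference. PRE9 (YGR135W), the alpha subunit that yeast can live without, had an FPKM of 689 in the minimal glycolysis strain and 613 in the reference. PRE8 (YML092C), PRE6 (YOL038W), PUP2 (YGR253C), PRE10 (YOR362C) and PRE5 (YMR314W) lay between 592 and 648 in the minimal glycolysis strain and between 540 and 625 in the reference. The log2 ratio ran from 0.05 for PRE8 to 0.21 for PRE6, with a median of 0.14. None of the 7 alpha-ring genes was called by the authors.

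Each core particle takes the same number of copies of every one of its subunits. The levels of their messenger RNA per length are set side by side here as a description. In the reference the highest of the 13 partners stood at 2.16 times the lowest, so FPKM was not even across the core. PUP3 ranked 1st of the 14 core genes in the minimal glycolysis strain, above all 13 partners. It ranked 4th of them in the reference, below PRE1, SCL1 and PRE2. PUP3 stood at 2.36 times the median FPKM of its 13 partners in the minimal glycolysis strain and at 1.14 times that median in the reference. Its FPKM was 14.9% of the sum over the core in the minimal glycolysis strain and 8.05% in the reference, where an even share would be 7.14%. Against PRE1, the highest partner, PUP3 stood at 1.65 times its FPKM in the minimal glycolysis strain and at 0.841 times in the reference. Against PUP1, the lowest partner, it stood at 3.96 times in the minimal glycolysis strain and at 1.82 times in the reference. The spread among the 13 partners changed little beside this, with a coefficient of variation across genes of 19.2% in the minimal glycolysis strain and 17.8% in the reference. These are levels of messenger RNA, and protein levels were not measured here.

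**Figure D2:**
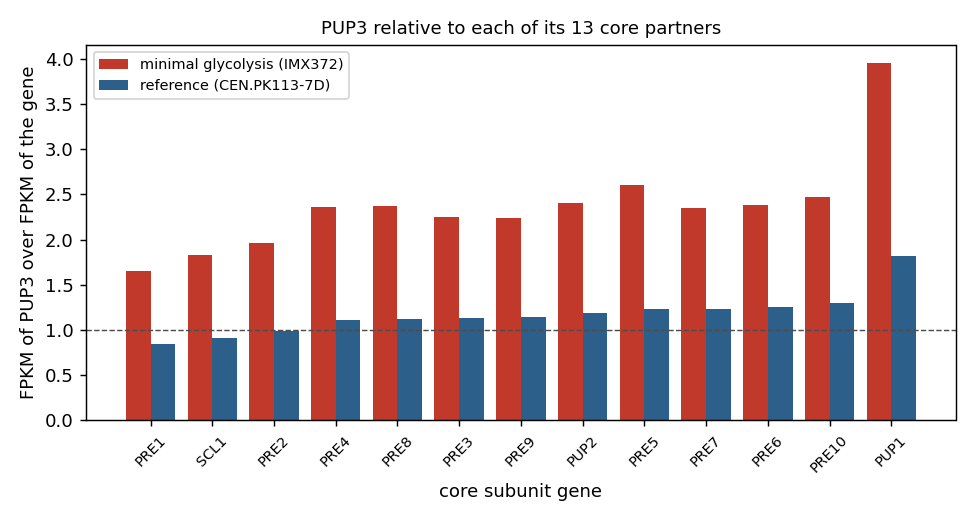
FPKM of PUP3 divided by the FPKM of each of its 13 core partners, with red bars for the minimal glycolysis strain, blue bars for the reference and a dashed line at equal levels. The red bars run from 1.65 to 3.96 and the blue bars from 0.841 to 1.82.

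The genes of the ATPase ring of the base had lower levels per length than every core gene except PUP1 in both strains. RPT1 (YKL145W) and RPT2 (YDL007W) were its highest genes, with FPKM of 489 and 473 in the minimal glycolysis strain and near 464 each in the reference. RPT4 (YOR259C), RPT6 (YGL048C) and RPT3 (YDR394W) had FPKM of 448, 437 and 383 in the minimal glycolysis strain and of 414, 380 and 340 in the reference. RPT5 (YOR117W) was the lowest, at 320 in the minimal glycolysis strain and 310 in the reference. The log2 ratio over the 6 ran from 0.03 for RPT2 to 0.20 for RPT6, and 0 of the 6 were called.

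The large scaffold subunits of the base had the lowest levels of the particle and ratios among those nearest to 0. RPN1 (YHR027C), which binds ubiquitin and shuttle receptors, had an FPKM of 170 in the minimal glycolysis strain and 168 in the reference. RPN2 (YIL075C), which holds Rpn13, had an FPKM of 213 in the minimal glycolysis strain and 214 in the reference. Its log2 ratio of -0.01 was the only one of the 34 below 0. The ubiquitin receptor genes RPN10 (YHR200W) and RPN13 (YLR421C) had FPKM of 475 and 469 in the minimal glycolysis strain and of 438 and 433 in the reference, with log2 ratios of 0.12 and 0.11.

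In the lid, SEM1 (YDR363W-A) had the highest level of all 34 genes in either strain, an FPKM of 1762 in the minimal glycolysis strain and 1546 in the reference. It encodes a very small protein that helps to assemble the lid and also occurs in complexes outside the proteasome, and its model is 270 bases long. RPN11 (YFR004W), the gene of the deubiquitinating enzyme of the lid, had an FPKM of 395 in the minimal glycolysis strain and 353 in the reference. The other lid subunits RPN12 (YFR052W), RPN8 (YOR261C), RPN6 (YDL097C), RPN9 (YDR427W), RPN7 (YPR108W), RPN3 (YER021W) and RPN5 (YDL147W) lay between 275 and 443 in the minimal glycolysis strain and between 251 and 405 in the reference. The log2 ratio over the 9 lid genes ran from 0.02 for RPN3 to 0.19 for SEM1, with a median of 0.13. None of the 9 was called in the authors' deposited table.

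RPN4 (YDL020C) had the lowest level of the 34, an FPKM of 117 in the minimal glycolysis strain and 112 in the reference. Its log2 ratio was 0.06 and its p by the authors' deposited table was 0.709, so no change in the messenger RNA of the activator was called. Its protein was not measured here.

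Without PUP3 the members lay in a narrow range, mostly above 0. Of the 33 genes 32 had a log2 ratio above 0, with a median of 0.12, a range from -0.01 to 0.21 and an SD across genes of 0.064. Of all 5329 named genes 53.0% lay above 0, with a median of 0.01 and an SD of 0.19. Of the 1490 other genes within the members' range of reference level and model length 57.1% lay above 0, with a median of 0.03 and an SD of 0.16. None of the 33 was called, beside 0.791% of all tested models. At that share most lists of this size would hold no call. Nothing is thus read from this count, or from the counts of 0 given above for the rings, the base and the lid. For the 33 genes p in the authors' deposited table ran from 0.194 for PRE6 to 0.971 for RPN2, each with q = 0.998. If those p-values are read as normal, they imply a standard error of the log2 ratio between 0.161 and 0.167 for every one of the 33. The 95% interval of each gene then holds 0, and over all 33 the intervals reach from -0.33 to 0.53. A difference of the size of the median, 0.12, is thus smaller than the error of a single gene. That error belongs to 1 gene, and none was computed for the median over the 33. The SD across the 33 genes, 0.064, was itself below the error implied for any of them. The implied error is thus no measure of the scatter among these genes, or of a shift they share. The smallest change called among the 1490 genes of like level and length was 0.74 on the log2 scale.

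**Figure D3:**
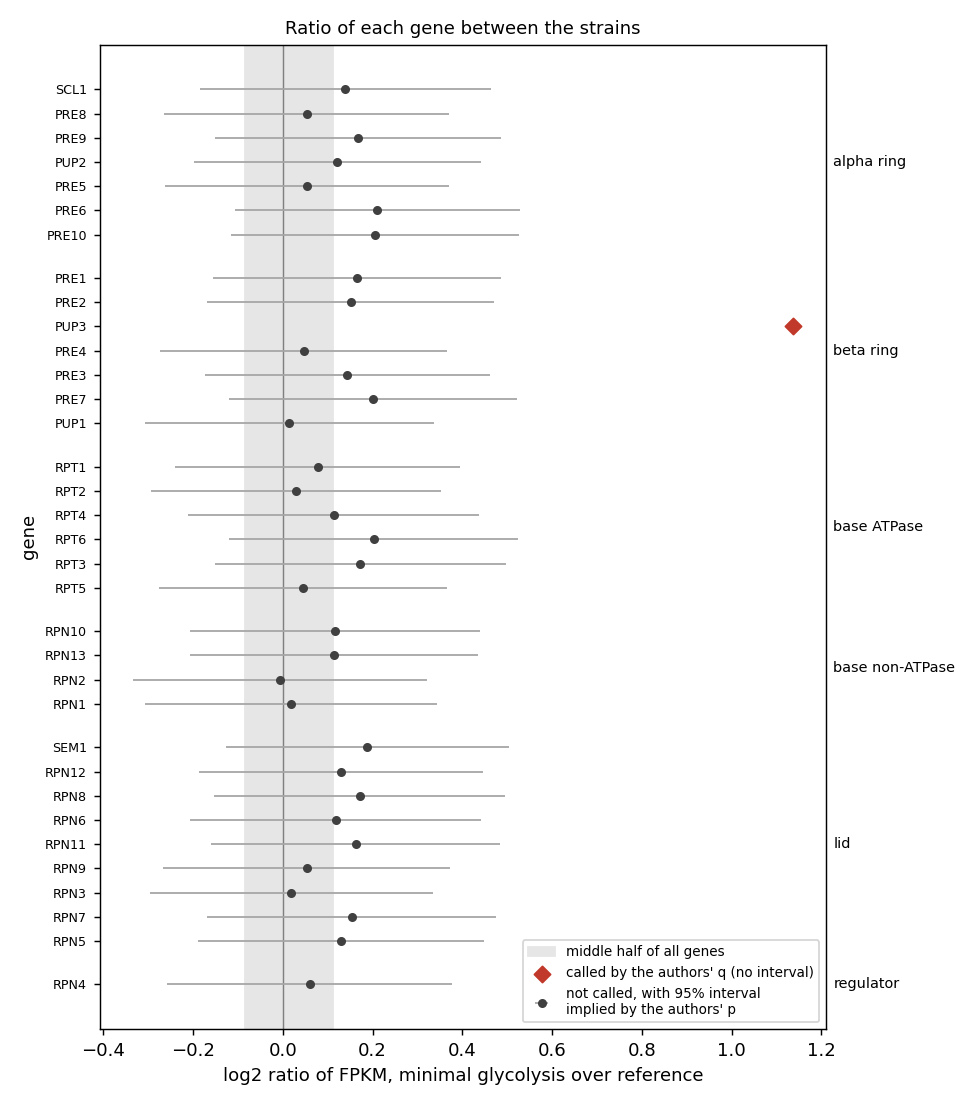
Log2 ratio of FPKM, minimal glycolysis over reference, for the 34 genes by place in the proteasome, with bars for the 95% interval implied by the authors' p and a grey band from -0.08 to 0.11 between the lower and upper quartile of all named genes. The 33 genes other than PUP3 lie between -0.01 and 0.21 with intervals across 0, and PUP3 lies at 1.14.

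These small ratios differed with model length, and their median fell when a trend with length or level was removed. The 15 genes over 1000 bases, RPN4 among them, had a median log2 ratio of 0.08, and the 18 genes of up to 1000 bases, PUP3 left out, one of 0.14. All 13 core partners are among the shorter genes, so this split is partly one by particle. The core partners had a median of 0.14 and the regulatory particle one of 0.12. Less a running median over the genes nearest in model length the median of the 33 was 0.08, with 28 above 0, and less one over the genes nearest in level it was 0.09, also with 28 above 0. PUP3 stood at 1.05 and 1.11 after the same steps. What part length and level have in the rest was not tested.

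The members were also split by the promoter element. The 26 genes other than PUP3 that hold it had a median log2 ratio of 0.13, and the 7 that do not had one of 0.11. The 42 measured genes outside the proteasome that hold it had a median of -0.01 with 19 above 0. Of them 0 were called, beside 0.791% of all tested models, so nothing is read from that count. These 42 genes had a median FPKM of 90.8 in the reference and a median model length of 1689, against an FPKM of 439 and a length of 1051.5 in the 26. What part level and length have in these medians was not tested.

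PUP3 was also picked out for its place in a raised stretch of chromosome 5, so the values of its neighbours describe that choice and carry no test. It is the leftmost model of a run of 9 consecutive tested models that were all called higher. All 9 have the same p = 5e-05 and q = 0.00735 in the authors' deposited table, so these values do not rank them. PUP3 had the 4th highest ratio of the run, and the median fold of the other 8 was 2.08. The run ends at RTT105, a gene that limits Ty1 transposition, at a 2.79-fold change, and includes genes of the ubiquitin system. UBC6, a ubiquitin-conjugating enzyme gene of the endoplasmic reticulum, had an FPKM of 432 in the minimal glycolysis strain and 202 in the reference. UBP9, a ubiquitin protease gene, had an FPKM of 26.8 in the minimal glycolysis strain and 16.3 in the reference. The other named genes of the run are SHC1, PRS2, AST2 and SSA4, with folds between 1.93 and 2.35. None of the genes of the run named here besides PUP3 holds the promoter element in its window.

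The edge of the run falls directly beside PUP3. AIM11, whose model ends 328 bases from that of PUP3, had an FPKM of 144 in the minimal glycolysis strain and 109 in the reference. Its log2 ratio of 0.41 had p = 0.0203 and q = 0.998 in the authors' deposited table, so it was not called. TSC11 and IES5, the next models to the left, had log2 ratios of 0.04 and 0.26. The 10 models left of PUP3 had a median log2 ratio of -0.03, and the 10 right of RTT105, which begin with NUP157 at -0.05, one of -0.04, with 0 called on either side. Farther left, YER085C had the lowest ratio of the stretch shown, at -1.13, with an FPKM of 0.614 in the minimal glycolysis strain and 1.34 in the reference, and was not called.

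**Figure D4:**
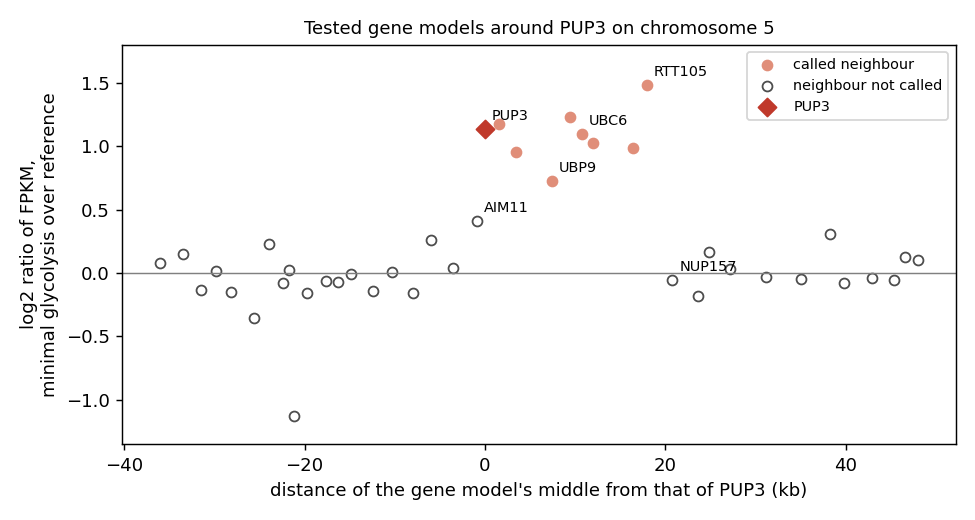
Log2 ratio of FPKM, minimal glycolysis over reference, of PUP3 (diamond) and of the 20 tested models on each side, by distance of their middles on chromosome 5, with filled points for called neighbours and open points for the rest. The called models form 1 run that begins at PUP3, and AIM11 beside it lies at 0.41.

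Around the other members, the neighbouring models had median log2 ratios near 0, while the median of these members themselves was 0.12. PRE1 and RPN3 also lie on chromosome 5, 170 and 150 kb to the left of PUP3, at log2 ratios of 0.17 and 0.02. The members lie on 13 chromosomes. For the 33 others the median log2 ratio of the 10 tested models on each side ran from -0.07 to 0.08, against 0.15 around PUP3. The value around PUP3 moved with the number of models taken. With 5 per side it was 0.57, and the others ran from -0.14 to 0.13. With 20 per side it was 0.022, within the range of the others from -0.08 to 0.07. Near chromosome ends fewer models were at hand, 13 in all for PRE4 and 11 for RPN12. A called model stood among those neighbours for 2 of the 33, PRE5 and RPN13, 1 each, against 8 for PUP3. Copy number of the chromosome 5 stretch was not measured here.

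Of 34 further genes listed for assembly, delivery, ubiquitin supply and control of RPN4, 32 had a value, and IRC25 and RPL40B were not analysed here. Of the 32, 0 were called, beside 0.791% of all tested models, a share at which lists of this size would mostly hold no call, so nothing is read from the counts of 0. In the list of assembly chaperones 0 of 9 were called in either direction, with a median log2 ratio of -0.0018 and 4 above 0. UMP1, which matures the core and whose level was the highest of the list, had an FPKM of 740 in the minimal glycolysis strain and 630 in the reference, a log2 ratio of 0.23. RPN14, a chaperone of the base, had the lowest ratio at -0.08.

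Among proteasome-associated factors and shuttle receptors 0 of 8 were called, with a median log2 ratio of -0.0019. STS1, needed for the nuclear placing of proteasomes, had an FPKM of 133 in the minimal glycolysis strain and 107 in the reference, a log2 ratio of 0.31 with p = 0.0541 in the authors' deposited table, the lowest p of the 32 genes. DSK2, a shuttle receptor for ubiquitin chains, had an FPKM of 199 in the minimal glycolysis strain and 237 in the reference, a log2 ratio of -0.25. In the list of ubiquitin and Cdc48 genes 0 of 8 were called, with a median of 0.06. RPS31, a ubiquitin fusion gene and the most abundant, had an FPKM of 23026 in the minimal glycolysis strain and 20329 in the reference. RPL40A, another ubiquitin fusion gene with a near-identical copy, had the highest log2 ratio of the list at 0.20. It too has 2 gene models, of which the longest tested one is given. UBA1, the ubiquitin-activating enzyme gene, had the lowest ratio at -0.16.

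Among the genes that control RPN4 0 of 7 were called, with a median log2 ratio of -0.01. The activators PDR1, PDR3, YAP1 and HSF1 stood at -0.08, -0.08, 0.09 and 0.04. RAD6, a ubiquitin-conjugating enzyme gene that serves the turnover of Rpn4, was the most abundant of the list, with an FPKM of 280 in the minimal glycolysis strain and 251 in the reference, and had the highest ratio at 0.16. Its partner UBR2 had the lowest at -0.22, at an FPKM of 2.92 in the minimal glycolysis strain and 3.40 in the reference. UBR2 has 2 gene models, of which the longest tested one is given.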

How the data were processed

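RNA sequencing covered 2 libraries of each strain, assigned by the strain label. The submitters' processing notes name Cuffdiff, Cufflinks, BWA 0.5.9-r16, CASAVA 1.8.2 and SAMtools 0.1.7-r510, without their roles. Per the labels, reads were analysed on the CEN.PK113-7D genome. Per the labels' protocols the library kit was one for DNA, which does not mark strand, so overlapping genes cannot be told apart. The deposited table holds the authors' FPKM per strain, pooled over libraries, with the authors' q-value, p-value, log2 ratio, signed fold and test statistic (a score). It gives 1 value per strain, per the file headers, so depth, intervals from counts and tests across libraries are not given. The test statistic and signed fold were not used. It lists 5472 models, of which 5437 were tested by the authors.

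Ratios were computed from FPKM without a pseudocount, with the longest tested model per systematic name. Model lengths are spans in the table and include the intron of PRE3. Standard errors were computed as the log2 ratio over the normal quantile of the authors' p. Symbols and promoter windows came from RefSeq R64, by name. Python 3.11.15, pandas 2.3.3, NumPy 2.4.6 and SciPy 1.17.1 were used, and the running median and recomputed q-values were tested on simulated data. The genes, lists and tests were chosen with earlier results of these data known. All 34 members were to be named, with the called, highest, lowest and most abundant genes of each further list, and around PUP3 the 3 nearest models per side and the called run. Genes of the other lists with the promoter element were named after their values were seen, as were the other activators of RPN4 and YER085C. Of the genes this rule selects, 1 is not reported here.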

Additional observations from a re-analysis of the deposited data

How the results depend on the processing

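PUP3 was the 1 member called with a q of 0.01, with q recomputed over all tested models or over those with an FPKM of at least 10, and with a 2-fold change in place of q. The lowest p of the other members in the authors' deposited table was 0.194 and their highest fold 1.16. None of these settings could therefore add a member. The median log2 ratio of the other 33 stayed between 0.08 and 0.13 under 7 alternatives, which added 1 or 5 FPKM, centred on all genes, left out RPN4, took the mean, or removed a running median. A minimum of 10 or 50 FPKM leaves all 33 genes in and could not change it. The level of PUP3 relative to the median of its partners moved with the partners taken: against all 32 other subunits it was 3.27 in the minimal glycolysis strain and 1.61 in the reference, since the regulatory particle has lower levels. The median around PUP3 was 0.57 with 5 models per side, 0.022 with 20 per side and -0.057 without the called models, by construction. The ranges of the other members at 5 and 20 per side were added after seeing the data. A move was counted when it passed 0.164, the median standard error implied by the authors' p. That cut exceeds the median log2 ratio of the 33, 0.12, so even its loss would not have been counted as a move. Leaving out a library could not be run on pooled values. No paired analysis was possible because the columns carry no replicate. FPKM without counts limits what is said of UBR2 and other genes at low levels.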

Other observations

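The promoter element of the proteasome genes also lay in the R64 windows of 5 genes of the further lists. ECM29, which binds and surveys proteasomes, stood at a log2 ratio of -0.15. UBI4, the polyubiquitin gene, stood at 0.12, UBA1 at -0.16, CDC48, the segregase that hands unfolded substrates to the proteasome, at -0.06, and YAP1, an activator of RPN4, at 0.09. None was called in the authors' deposited table, beside 0.791% of all tested models, so nothing is read from that count. Of the 5, 3 lay below 0, where 53.0% of all named genes lay above 0. Of the proteasome genes other than PUP3, 25 of 26 with the element and 7 of 7 without it lay above 0. No difference between these groups was tested. These 5 genes were named after their values were seen.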
